A study of Arabidopsis thaliana with 3 samples.

Results

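The auxin response genes of Arabidopsis thaliana were examined for occupancy by UBP5, a ubiquitin-specific protease, on the basis of chromatin immunoprecipitation followed by sequencing (ChIP-seq). Members were the protein-coding genes of the TAIR10 annotation whose product text named an auxin response factor, an indole-3-acetic acid inducible or AUX/IAA protein, a SAUR-like protein or an auxin-responsive protein. This rule took 149 of 27444 protein-coding genes: 24 AUXIN RESPONSE FACTOR (ARF) genes, 21 INDOLE-3-ACETIC ACID INDUCIBLE (IAA) genes, 78 SMALL AUXIN UP RNA (SAUR) genes and 26 others, of which 19 belong to the GH3 family.

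The chromatin came from Col-0 seedlings 12 days after germination that carried a ubp5 deletion made by CRISPR/Cas9 and, as a transgene, a genomic UBP5-GFP fusion driven by the UBP5 promoter (UBP5pro::gUBP5-GFP). The 3 samples were 2 replicates of the immunoprecipitate (IP) with an antibody against GFP and 1 input, the sheared chromatin before precipitation, all of this one genotype. All 3 were crosslinked doubly, with the crosslinker EGS at 25 mM and then formaldehyde at 1%, and sheared to lengths between 200 and 500 bp. Whether the fusion touched the DNA itself or was held there through other proteins was not tested. A peak list was analysed for each IP replicate, and the input entered only as the level against which the peaks were called. An IP from plants without GFP was not analysed here, so binding of the fusion and precipitation of background that the input does not show cannot be told apart.

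Auxin is perceived by the TIR1/AFB F-box proteins, which bring Aux/IAA proteins, the products of the IAA genes, to an SCF ubiquitin ligase for degradation. At low auxin, Aux/IAA proteins hold ARF transcription factors in check together with the co-repressor TOPLESS; at high auxin the ARFs are released and act on genes whose promoters often carry the auxin response element. Many IAA, SAUR and GH3 genes are rapidly induced targets of this pathway, whereas the ARF genes encode the factors that act on them.

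A gene was called bound when peaks of both replicates overlapped its annotated body, from start to end, by at least 1 bp. By this rule 14 of the 149 auxin response genes were bound, which is 9.40%, against 29.0% of all protein-coding genes. The share was 25.0% in the ARF genes (6 of 24), 9.52% in the IAA genes (2 of 21), 6.41% in the SAUR genes (5 of 78) and 3.85% in the others (1 of 26, a GH3 gene). All 4 shares lay under that of all protein-coding genes, and the ARF share was the nearest to it. With a fold enrichment of at least 2 required in both replicates, the ARF share was 4.17% (1 of 24), the IAA share 4.76% (1 of 21) and the SAUR share 1.28% (1 of 78), against 14.4% of all protein-coding genes, so that ARF no longer stood above IAA. These are counts over 2 replicates of a single genotype, and no test was made on them. A further 3 members had a peak in replicate 1 only, 1 had a peak in replicate 2 only, and 131 had none in either. Among all 27444 protein-coding genes these counts were 1300, 648 and 17525.

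The 6 bound ARF genes were ARF1, ARF4, ARF9, ARF11, ARF16 and ARF17. The 2 bound IAA genes were IAA11 and IAA12. IAA12 is also known as BODENLOS, an inhibitor of ARF5 in the formation of the embryonic root. The 5 bound SAUR genes were SAUR35, SAUR49, SAUR59, SAUR70 and SAUR72. The remaining bound gene was DFL2, of the GH3 family of acyl-amido synthetases.

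Replicate 1 held 10266 peaks and replicate 2 held 10898. Fold enrichment, as the peak caller gives it, is the ratio of the IP fragment pileup at a peak's summit to a reference level. That level was either a background level shared by the whole replicate or a higher local input level. The background level worked out from the peak lists was 44.0 fragments in replicate 1 and 168.3 in replicate 2, so replicate 2 was the deeper library. For the bound members, 26 of 28 reference levels were this background, and 13 members had it in both replicates. The exception was SAUR59, with a higher level in each replicate. Fold enrichment of the other bound members was thus pileup over a constant, and not over an input level particular to the gene. At the summits of bound members the IP pileup was between 80 and 126 fragments in replicate 1 and between 248 and 397 in replicate 2. For peaks with a fold enrichment between 1.9 and 2.1, the median −log10 q-value was 7.36 in replicate 1 and 20.5 in replicate 2. The 95% intervals below are exact Poisson intervals of the IP fragments and cover counting error only.

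The sequence around the summits was searched for words known from other chromatin proteins. The Telobox (AAACCCTA on either strand), a short telomere-like word bound by TRB proteins and the zinc finger protein AZF1, lay within 100 bp of the strongest summit in 2 of the 14 bound members, IAA11 and IAA12, in both replicates. That is 14.3%, against 16.5% and 16.6% of all bound protein-coding genes in replicates 1 and 2. A GAGA word (GAGAGAGA on either strand), a repeat that BPC proteins bind, lay there in ARF9 alone, 7.14% of the bound members against 7.40% and 7.19% of all bound genes. The sites are shown because these are the only bound members of the rule with either word, together with IAA8, a bound IAA gene outside the rule that is described further on. Each line gives 30 bases of the gene's own strand from RefSeq TAIR10.1, read 5′ to 3′, with the word in capitals.
IAA11: tatcgagattgTAGGGTTTacgctgatgat
IAA12: tcattggagtcTAGGGTTTtgttattgaca
IAA8: attctcatctgAAACCCTAatttttctggg
ARF9: gttcttcatcgGAGAGAGAtagagagactg
In IAA11 the stretch spans chr4:14142426-14142455 in the coding exon, 378 bp from the gene start, with the Telobox in antisense orientation. In IAA12 it spans chr1:1240553-1240582 in the 5′ UTR, 274 bp from the start, and the Telobox is again in antisense orientation. In IAA8 it spans chr2:9636969-9636998 in the 5′ UTR, 638 bp from the start, with the Telobox in sense orientation. In ARF9 it spans chr4:12451524-12451553 in the 5′ UTR, 396 bp from the start, with the GAGA word in sense orientation. The centre of the word lay 2 bp upstream of the replicate 1 summit in IAA11 and 62 bp downstream of that of replicate 2. It lay 81 and 47 bp upstream in IAA12, 25 and 81 bp downstream in IAA8 and 8 and 10 bp upstream in ARF9. Of the bound IAA genes outside the rule, IAA10 held a GAGA word near the replicate 1 summit only. A match is a description of the sequence and not of a bound factor.

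Among the ARF genes, the bound ones fell into classes B and C. Class A holds the ARFs with a glutamine-rich middle region that activate transcription, and classes B and C are mostly described as repressors. Of the 5 class A genes (ARF5, ARF6, ARF7, ARF8 and ARF19), 0 were bound, and ARF7 had a peak in replicate 1 only. Of the 7 class B genes outside the chromosome 1 group, 4 were bound (ARF1, ARF4, ARF9 and ARF11), and ARF2, ARF3 and ARF18 had no peak. The 8 closely related class B genes on chromosome 1 (ARF12, ARF13, ARF14, ARF15, ARF20, ARF21, ARF22 and ARF23) had no peak in either replicate. Of the 3 class C genes, whose transcripts are cleaved by miR160, ARF16 and ARF17 were bound and ARF10 was not. The remaining ARF gene by product text, AT3G61840, is annotated as a DUF688 protein rather than a numbered ARF and had no peak. Without it the ARF share was 26.1% (6 of 23). Of all protein-coding genes 29.0% were bound, and 43.0% of those of 3000 bp and over. Beside these shares, classes of 3 to 8 genes are too small to set apart, and the counts are given as a description.

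ARF4, which acts with ARF3 in the abaxial identity of leaves, lies at chr5:24308255-24312784 on the minus strand. Its fold enrichment was 2.51 (95% interval 2.07 to 3.02) in replicate 1 and 2.06 (1.85 to 2.29) in replicate 2. These were the largest values of the 6 bound ARF genes in both replicates. The summits lay 598 and 587 bp from the gene start, at the border of the 5′ UTR and the coding exon.

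ARF1, a repressor linked to leaf senescence and floral organ shedding, lies at chr1:21979289-21984433 on the plus strand and had a fold enrichment of 2.22 and 1.91 in replicates 1 and 2. Its summits fell in the intron that follows the leading exon, 391 and 331 bp from the start. ARF11 (chr2:19104632-19108486, plus strand) had 2.31 and 1.93, with summits in a coding exon 552 and 556 bp from the start. ARF9, at chr4:12451143-12455369 on the plus strand, had 2.36 (1.93 to 2.85) in replicate 1 and 1.56 (1.38 to 1.76) in replicate 2. The intervals of the 2 replicates did not overlap for ARF9, although its summits, at 404 and 406 bp, were 2 bp apart.

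ARF16, which acts with ARF10 in root cap development, lies at chr4:14703065-14706354 on the minus strand and had a fold enrichment of 2.31 and 1.98. Its summits lay in an intron 201 and 253 bp from the start, the closest to the start of any bound ARF gene. ARF17, required for pollen wall formation, lies at chr1:29272074-29275507 on the plus strand and had 2.09 and 1.85. Its summits were in a coding exon at 574 and 591 bp. ARF7, the class A activator of lateral root formation and tropic growth, had a peak in replicate 1 only, at a fold enrichment of 2.00 (1.61 to 2.46). The replicate without that peak was the deeper one. Over all protein-coding genes, 1300 had a peak in replicate 1 only and 648 in replicate 2 only.

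IAA12 (chr1:1240294-1242157, plus strand) had the largest fold enrichment of all bound members in both replicates, 2.82 (2.36 to 3.36) and 2.35 (2.12 to 2.59). IAA11 (chr4:14142063-14143969, plus strand) had 2.76 (2.29 to 3.28) in replicate 1 and 1.98 (1.78 to 2.21) in replicate 2, and these intervals did not overlap. Both genes had their summits in a coding exon, at 355 and 321 bp from the start in IAA12 and at 380 and 316 bp in IAA11. Both encode Aux/IAA proteins with the degron of domain II that TIR1/AFB receptors recognise. In all, 2 of the 15 IAA genes with a degron were bound (4 of 23 when IAA genes are taken by symbol), and 0 of the 6 without one (IAA20, IAA30, IAA31, IAA32, IAA33 and IAA34). Beside 29.0% of all protein-coding genes, 6 genes are too few to set these classes apart.

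The product text leaves out 8 genes that carry an IAA number as symbol or synonym: IAA6, IAA7, IAA8, IAA10, IAA13, IAA16, IAA26 and IAA27. Of these, IAA10 and IAA8 were bound, so that 4 of 29 IAA genes by symbol were bound (13.8%). IAA10 had a fold enrichment of 3.22 (2.72 to 3.79) and 2.46 (2.23 to 2.71), above that of IAA12 in both replicates though with overlapping intervals, and its summits lay in the 5′ UTR 112 and 169 bp from the start. IAA8 stood at the other end, with 1.80 (1.43 to 2.24) and 1.52 (1.34 to 1.71) and summits in the 5′ UTR at 613 and 557 bp. IAA10 and IAA11 are each other's closest relatives by protein sequence in this family, and both were bound. IAA13, the closest relative of IAA12, had no peak.

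SAUR proteins are small, and the best known of them promote cell expansion by inhibiting PP2C.D phosphatases and so keeping plasma membrane proton pumps active. SAUR49 (chr4:16577180-16578452, plus strand) had a fold enrichment of 2.20 (1.79 to 2.68) and 2.15 (1.94 to 2.39), the most even pair of the bound members. Its summits lay in the coding exon at 741 and 673 bp, farther from the start than those of any other bound member. SAUR70 (chr5:7043758-7045830, plus strand) had 2.47 (2.03 to 2.97) in replicate 1 and 1.54 (1.36 to 1.74) in replicate 2, with intervals that did not overlap. Its summits, in the 5′ UTR at 281 and 284 bp, were 3 bp apart.

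SAUR35 (chr4:7342800-7343731, minus strand) had a fold enrichment of 2.29 and 1.73, with summits in the coding exon at 373 and 311 bp. SAUR59 (chr3:22434864-22436053, plus strand) had 2.03 and 1.63, with summits in the coding exon at 595 and 580 bp. At SAUR59 the local input level was above the background, at 47.7 fragments in replicate 1 and 176 in replicate 2. SAUR72 (chr3:4078651-4079627, minus strand) had the smallest values of the bound members, 1.80 (1.43 to 2.24) and 1.47 (1.29 to 1.66), with summits in the coding exon at 247 and 246 bp. Its −log10 q-value was 4.83 and 4.84, and it was the only bound member lost when a q-value of at most 1e-05 was required. SAUR53 and SAUR69 had a peak in replicate 1 only, at a fold enrichment of 2.07 (1.67 to 2.53) and 2.05 (1.65 to 2.51).

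GH3 enzymes join amino acids to auxin, jasmonate and related acids. Of the 19 GH3 genes, DFL2 was bound, with a fold enrichment of 2.29 (1.87 to 2.78) and 2.09 (1.88 to 2.32). Its annotated body (chr4:1497536-1501599, minus strand) overlaps AT4G03410 on the other strand, and both summits, 337 and 286 bp from the start of DFL2, also lay inside AT4G03410, so the peak cannot be given to one of these genes. JAR1, which makes the active jasmonate conjugate, had a peak in replicate 2 only, at a fold enrichment of 1.59 (1.41 to 1.79).

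**Figure D1:**
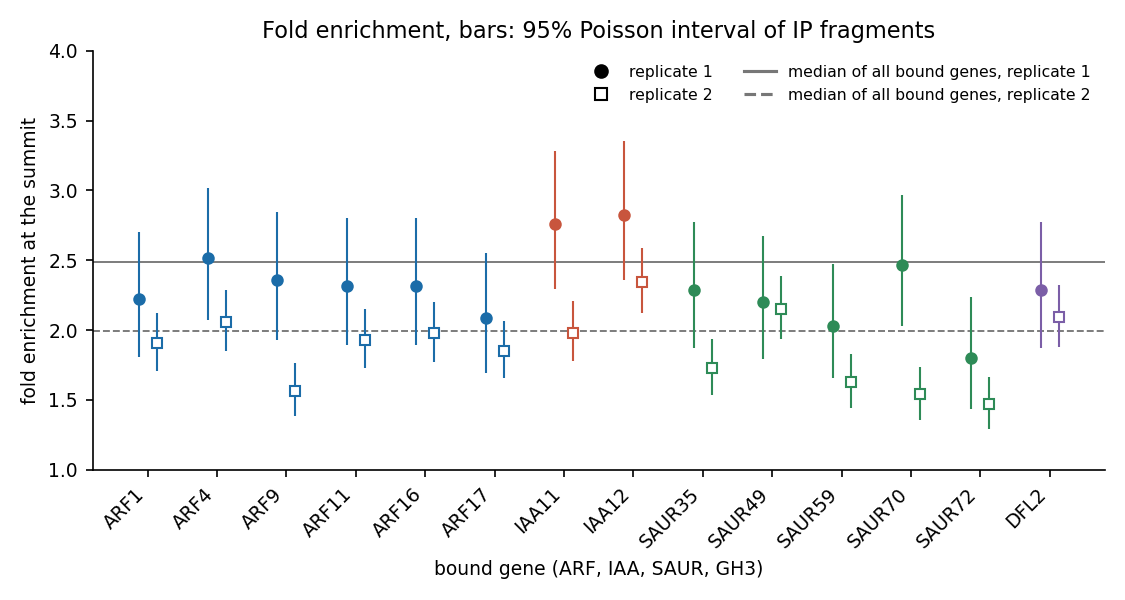
Fold enrichment at the strongest summit (vertical axis, ratio) of each of the 14 bound auxin response genes; filled circles are replicate 1, open squares replicate 2, bars the 95% Poisson interval of the IP fragments, and grey lines the medians of all bound protein-coding genes (2.49, solid, replicate 1; 1.99, dashed, replicate 2). The replicate 1 value is above that of replicate 2 in all 14 genes, and IAA12 has the largest value in both replicates.

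Between families, the median fold enrichment of bound genes was 2.31 and 1.92 in the ARF genes in replicates 1 and 2, a mean of 2.12 ± 0.28 (SD, n = 2 replicate medians). It was 2.79 and 2.17 in the IAA genes (2.48 ± 0.44) and 2.20 and 1.63 in the SAUR genes (1.91 ± 0.41). All bound protein-coding genes had 2.49 and 1.99 (2.24 ± 0.35). The IAA median was thus highest and the SAUR median lowest in both replicates. Much of each SD is the offset between the replicates, which all groups share. Within replicates 1 and 2, the IAA median was above the ARF median by 0.48 and 0.25 and above the SAUR median by 0.59 and 0.54, and the ARF median was above the SAUR median by 0.11 and 0.29. These medians rest on 6, 2 and 5 bound ARF, IAA and SAUR genes, and no test was made. Against the median of all bound genes, 3 of the 14 members were higher in replicate 1 (ARF4, IAA11 and IAA12) and 4 in replicate 2 (ARF4, IAA12, SAUR49 and DFL2). Fold enrichment was higher in replicate 1 than in replicate 2 in 14 of 14 bound members, as in 97.0% of all bound genes. For 3 of the 14 (ARF9, IAA11 and SAUR70) the intervals of the 2 replicates did not overlap. The intervals do not correct for the offset between the replicates, a median ratio of 1.24 over all bound genes. Such non-overlap was not counted over all bound genes, so it cannot be called particular to these members.

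The families differ in gene length. The median length from annotated start to end was 3500 bp in the ARF genes, 1541 bp in the IAA genes and 812.5 bp in the SAUR genes, against 2078 bp in all protein-coding genes. Longer genes were bound more often among all protein-coding genes: 6.49% of those under 1000 bp, 23.2% of those from 1000 to under 2000 bp, 35.9% of those from 2000 to under 3000 bp and 43.0% of those of 3000 bp and over. In the class of 3000 bp and over, 6 of 21 ARF genes were bound (28.6%). In the class from 1000 to under 2000 bp, 2 of 15 IAA genes (13.3%) and 2 of 13 SAUR genes (15.4%) were bound. Among genes under 1000 bp, 2 of 63 SAUR genes were bound (3.17%). In each of these classes the family's share was under that of all protein-coding genes of like length. The exception was SAUR70, which made 1 of 2 SAUR genes from 2000 to under 3000 bp bound.

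If each member had the bound share of its length class, 9.69 ARF, 5.42 IAA and 7.83 SAUR genes would be bound, against the 6, 2 and 5 counted. The order of the families by bound share, ARF over IAA over SAUR, was the same as the order of these length-based shares (40.4%, 25.8% and 10.0%), though not where a fold enrichment of at least 2 was required. The GH3 genes and the rest of the 26 others stood farther from it, with 1 bound gene where the length classes would give 8.61. No test was made on these differences.

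**Figure D2:**
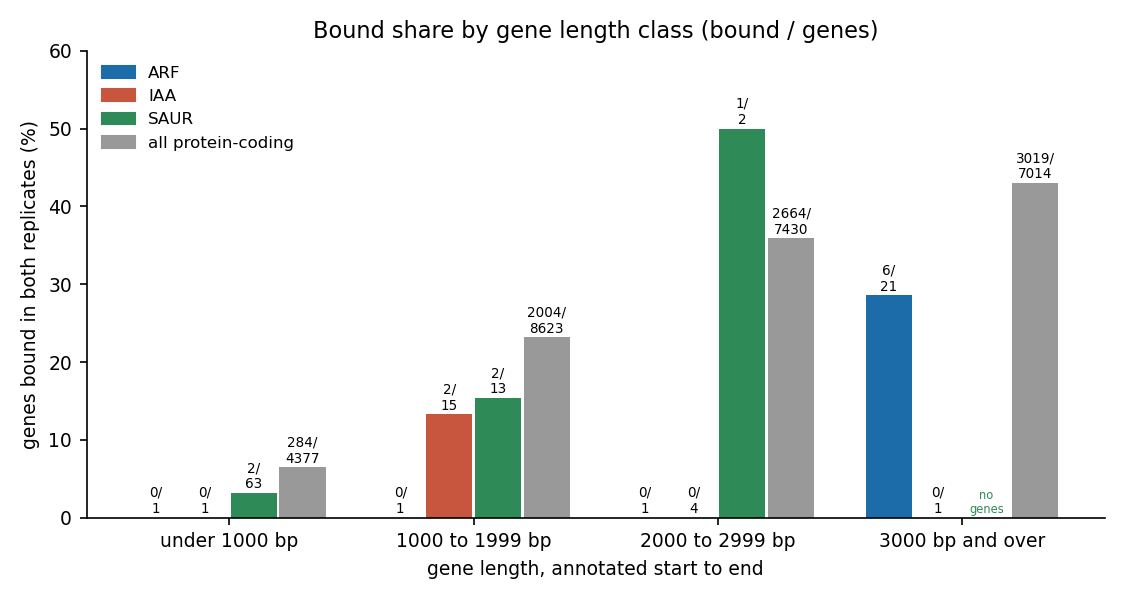
Percent of genes bound in both replicates (vertical axis, from 0) in 4 classes of gene length, for the ARF, IAA and SAUR genes and for all protein-coding genes, with bound genes over genes printed above each bar. The grey bars climb through the classes to 43.0%; most ARF genes are in the class of 3000 bp and over (6 of 21 bound) and most SAUR genes in the class under 1000 bp (2 of 63 bound).

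Within families, the median length of bound genes was above that of unbound ones, but the longest genes were unbound. In the ARF family 4 unbound genes (ARF7, ARF19, ARF2 and ARF6) were longer than every bound one, in the IAA family 6 (IAA9, IAA17, IAA14, IAA18, IAA32 and IAA28), and in the SAUR family 1 (SAUR8, 2588 bp). Bound ARF genes were between 3290 and 5145 bp long, and unbound ones between 839 and 5735 bp, with medians of 4041 and 3220 bp. The bound IAA genes were 1864 and 1907 bp long, with a median of 1886 bp, against 1537 bp in the unbound IAA genes. Bound SAUR genes had a median of 1190 bp, against 792 bp in the unbound ones, and none of the 5 was shorter than 932 bp, while the shortest unbound SAUR gene had 396 bp. The ranges overlapped in every family.

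**Figure D3:**
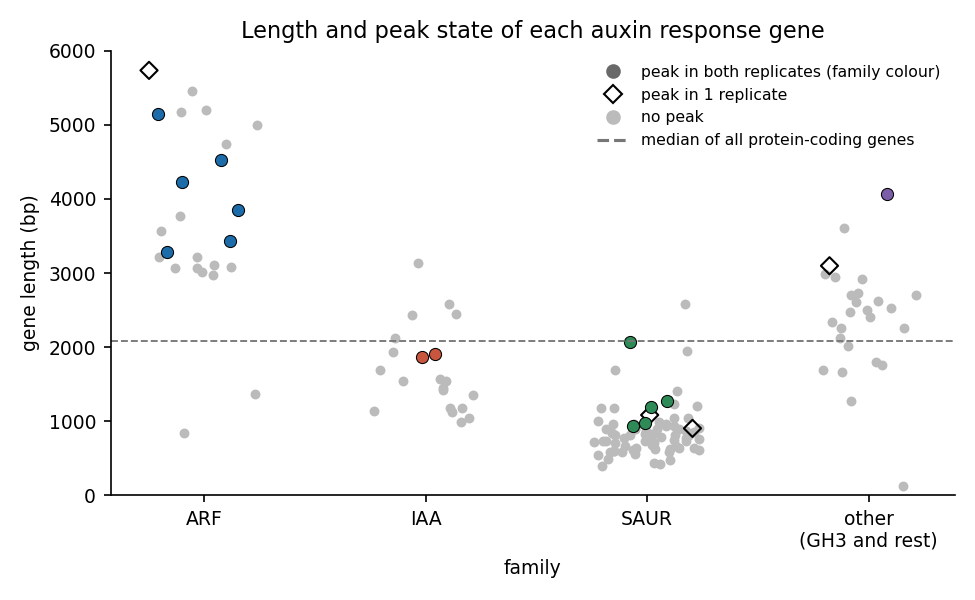
Gene length (vertical axis, bp) of each of the 149 auxin response genes by family; large coloured points have peaks in both replicates, open diamonds in 1 replicate, and small grey points in none, and the dashed line is the median of all protein-coding genes (2078 bp). Points are spread sideways only for legibility, and the 5 bound SAUR genes are all 932 bp or longer.

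Among all protein-coding genes 32.4% of those with an intron were bound, against 14.7% of those without. Nearly all ARF genes (23 of 24) and all 21 IAA genes have introns, so bound and unbound genes could not be compared by intron in these families. Of 78 SAUR genes, 71 have no intron in the annotation, and 3 of those were bound (4.23%), whereas SAUR49 and SAUR70 were bound among the 7 with an intron. Within length classes of all protein-coding genes the gap was smaller: 6.40% with and 6.56% without an intron under 1000 bp, 24.6% and 18.8% from 1000 to under 2000 bp, and 43.1% and 35.7% at 3000 bp and over.

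Summits lay inside the gene body, downstream of the start, in all 14 bound members. The median distance from the annotated start was 478 and 481 bp in the ARF genes in replicates 1 and 2, 367.5 and 318.5 bp in the IAA genes, and 373 and 311 bp in the SAUR genes. Over all bound protein-coding genes it was 328 and 331 bp. The 6 ARF genes had distances between 201 and 598 bp in replicate 1, a range that spans the quartiles of all bound genes in that replicate (251 and 444 bp). The ARF median was above the upper quartile of all bound genes in both replicates (444 and 433 bp), but it rests on 6 genes. Of the 14 members, 9 had the summit within 500 bp downstream of the start in each replicate (64.3%), against 80.4% and 81.2% of all bound genes. Summits of the 2 replicates were at most 68 bp apart in the bound members, and 14 of 14 were within 100 bp of each other, against 85.1% of all bound genes.

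By annotated place, the strongest summit fell in a coding exon in 9 members in replicate 1 and 8 in replicate 2, in the 5′ UTR in 3 and 4, and in an intron in 2 and 2. The coding share was 64.3% and 57.1% in the members, against 48.6% and 49.5% of all bound genes, and the 5′ UTR share was 21.4% and 28.6%, against 22.8% and 21.3%. Both intron summits belonged to ARF genes, ARF1 and ARF16, whose coding sequence starts in a later exon. In SAUR genes 4 of 5 summits were in the coding exon. ARF4 is the member whose class changed between the replicates, from summits 11 bp apart. Its replicate 1 summit lay in the start codon and its replicate 2 summit upstream of that codon, in the 5′ UTR.

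**Figure D4:**
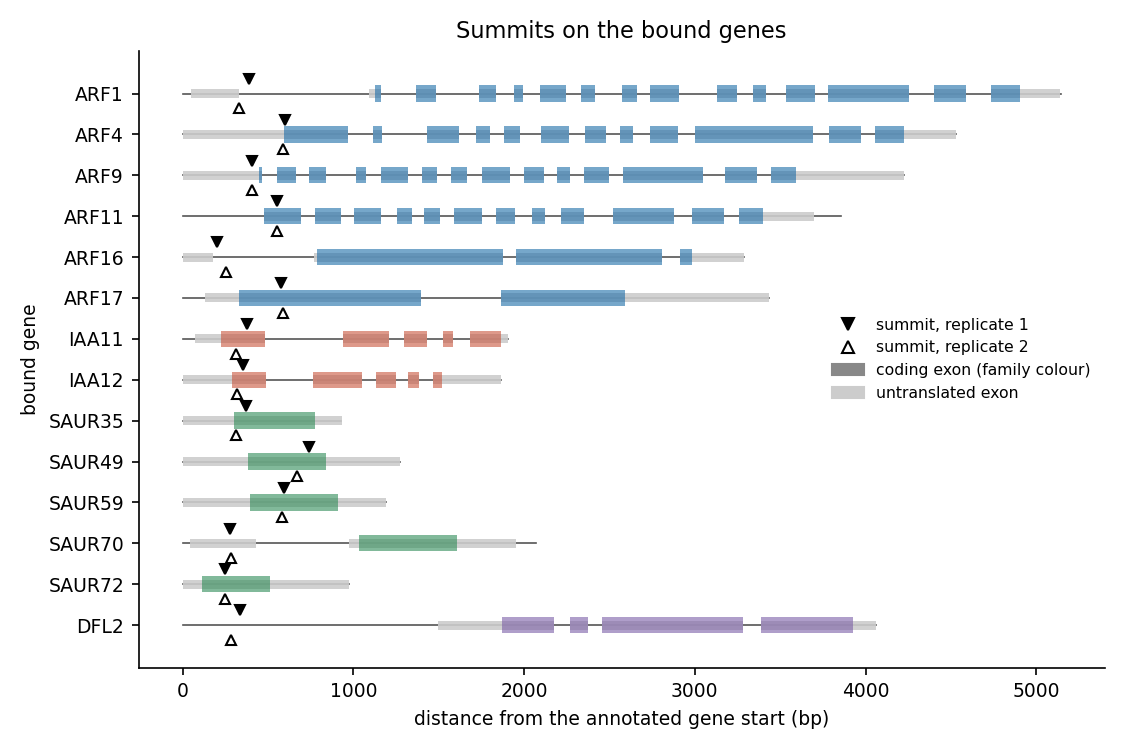
The 14 bound genes drawn to scale from the annotated gene start (horizontal axis, bp), with coding exons in the family colour and untranslated exons in grey for the transcript with the longest coding sequence. Filled triangles above each gene mark the replicate 1 summit and open triangles below it the replicate 2 summit, all between 201 and 741 bp from the start; ARF1, ARF16 and DFL2 have them in the line that stands for an intron or for sequence outside the drawn transcript.

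The auxin response element TGTCTC, the word through which ARF proteins recognise promoters, was searched on both strands in the 250 bp upstream of each gene start. It was present in 7 of 21 IAA genes (33.3%), 7 of 78 SAUR genes (8.97%), 5 of 26 others (19.2%) and 1 of 24 ARF genes (4.17%, ARF3), against 10.9% of all protein-coding genes. The 7 IAA genes were IAA1, IAA5, IAA19, IAA20, IAA30, IAA32 and IAA34, and none had a peak. Of the 14 bound members, 0 held the word, and of the 135 unbound ones 20 did (14.8%). IAA8, bound but outside the product text, held it. Over all protein-coding genes the shares were 10.1% of the bound and 11.3% of the unbound.

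Near-identical copies may limit what the lists can show, since the authors kept only reads that aligned to a single place. At least 90% identity of the coding sequence to another member of the family was found in 6 ARF genes, all of the chromosome 1 group (ARF12, ARF14, ARF15, ARF20, ARF21 and ARF22), in 8 SAUR genes (SAUR19 to SAUR24, SAUR62 and SAUR75) and in 0 IAA genes. None of these had a peak. The bound ARF, IAA and SAUR genes had at most 74.3% identity to another gene of their family, and DFL2 was not measured. The part of the mapping rule in the absence of peaks over the copies was not tested.

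SAUR genes often stand side by side: 34 of 78 had another SAUR gene as the next protein-coding gene, in 11 arrays of 2 to 7 genes. Of these 34, 2 were bound (5.88%), against 3 of the 44 that stand alone (6.82%). The longest array, of 7 genes on chromosome 4 (SAUR49, SAUR50 and SAUR1 to SAUR5), had peaks over SAUR49 only. SAUR70 was bound and its neighbour SAUR76 was not. Peaks next to unbound members were few: 4 of 71 SAUR genes without a peak had one within 500 bp in each replicate (5.63%), against 9.35% and 8.74% of all protein-coding genes without a peak. It was 1 of 17 among the ARF genes and 1 of 19 among the IAA genes in each replicate.

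The rest of the auxin pathway was read from a list of 51 genes, of which 47 were matched in the annotation by symbol or synonym and 10 were bound (21.3%, against 29.0% of all protein-coding genes). Of the 5 genes for the SCF ligase and its regulators, 4 were bound. SKP1, the adaptor that holds the F-box receptor, had a fold enrichment of 10.9 and 8.58, RBX1, the RING subunit, had 5.54 and 3.88, and CUL1, the scaffold, had 3.27 and 2.88, with the replicate 2 summit upstream of the gene. AXR1, which activates the ubiquitin-like protein RUB that modifies CUL1, had 2.45 and 1.89. SKP1, RBX1 and CUL1 were each above every bound ARF, IAA and SAUR gene in both replicates, and these subunits also serve SCF ligases outside auxin signalling.

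Of the 6 receptors, AFB4 was bound, at 1.96 and 1.53, and TIR1, AFB1, AFB2, AFB3 and AFB5 had no peak. Of the 5 TOPLESS co-repressors, TPR1 (2.34 and 1.58), TPR2 (4.25 and 3.44) and TPR4 (2.49 and 1.47) were bound, TPR3 had a peak in replicate 2 only, and TPL had none. Of the 15 transporters, ABCB1 (2.62 and 1.77) and ABCB4 (2.60 and 2.23) were bound, and ABCB19, the 8 PIN carriers and the 4 AUX1/LAX influx carriers had no peak. At ABCB4 the summits lay 4875 and 4869 bp from the gene start, toward the 3′ end of the gene. None of the 14 synthesis genes of the TAA and YUCCA families had a peak, and neither did the proton pump genes AHA1 and AHA2, on which SAUR proteins act.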

How the data were processed

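The authors filtered reads (SOAPnuke), mapped them to TAIR10 using Bowtie2 2.4.5, kept reads with a single alignment, and called peaks of each IP replicate with MACS3 3.0.0, using the 1 input for both and a q-value cutoff of 0.01. Duplicate removal was not stated. The deposited peak lists give fold enrichment (a ratio), −log10 p-values and −log10 q-values, both larger in deeper libraries, and a score that was not used.

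Genes and sequence came from RefSeq TAIR10.1, chromosomes 1 to 5. The peak with the largest fold enrichment represented a gene. A summit counted as 5′ UTR before coding exon, 3′ UTR and intron, over all transcripts. The background level was the one that gave the p-values of 86.2% and 82.6% of peaks in replicates 1 and 2 within 0.03 on the −log10 scale. Of these, 100% and 73.6% of pileups were whole fragments (within 0.05), with a step of 0.726 in replicate 2. Read totals were not used. Identity came from global alignments (Biopython 1.88). The 4 PP2C.D genes of the pathway list were not matched.

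Members and lists were chosen with earlier results of these data known. Named were every bound ARF, IAA and SAUR gene, those with a peak in 1 replicate, bound others and bound pathway genes. IAA8, IAA10, JAR1, TPR3 and unbound genes were named after their values were seen. Functions were tested on simulated data. With 2 replicates no test was made.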

Additional observations from a re-analysis of the deposited data

How the results depend on the processing

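The bound counts depend on the threshold of fold enrichment. With at least 2 in both replicates, 1 ARF gene (ARF4), 1 IAA gene (IAA12), 1 SAUR gene (SAUR49) and 3941 protein-coding genes (14.4%) were bound; with at least 3, 0 ARF, 0 IAA and 0 SAUR genes and 822 protein-coding genes (3.00%). With members taken by symbol or synonym, 4 IAA genes were bound. The other alternatives left the counts within 1.5 times: a q-value of at most 1e-05 (without SAUR72), peaks that overlap each other, summits inside the body, 500 bp added upstream (with SAUR65), and, chosen after seeing the data, the ARF genes without AT3G61840. Without 1 replicate the counts were between 6 and 7 for ARF, 2 and 2 for IAA, 5 and 7 for SAUR and 8619 and 9271 for all protein-coding genes; family medians of fold enrichment and distance were then those given per replicate. With 250 bp to each side of the summit, a Telobox lay at 1 ARF gene in each replicate, at 1 SAUR gene in replicate 1, and at 2745 and 2833 of all bound genes. Of 96 alternatives, 82 left the value the same within these limits and 14 moved it. The limits apply to each value alone and do not follow the order of the families. With a fold enrichment of at least 2 the ARF share no longer stood above the IAA share. No paired analysis was possible because the input is a single sample with no peak list of its own, so no 2 groups could be compared. Depth limits weak binding: a member without a peak at these depths may still be bound below the threshold of the caller.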
